A study of Homo sapiens with 6 samples.

Results

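The genes described here were 9 core components of the Hedgehog pathway, a signalling route that vertebrate cells read through the primary cilium: the co-receptors GAS1, CDON and BOC, the receptor PTCH1, the transducer SMO, the GLI inhibitor SUFU and the transcription factors GLI1, GLI2 and GLI3. They were chosen by gene symbol, and each of the 9 symbols matched 1 gene among the 60666 genes on chromosomes in the deposited expression table. RNA-seq was carried out in hTERT-RPE1-TOShOFD1 cells, a line of RPE1 cells (human retinal pigment epithelial cells immortalized with telomerase) that carries a lentiviral Tet-On short hairpin RNA that targets OFD1. OFD1 is a protein of centrioles and of the centriolar satellites around them, and doxycycline switches the hairpin on.

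The control group held 3 samples grown for 72 h without doxycycline and labelled WT in genotype, and the OFD1-depleted group held 3 samples grown for 72 h with 200 ng/mL doxycycline and labelled OFD1 knockdown. Both groups came from the same hairpin line, grown in medium with serum. No sample received doxycycline without the hairpin, so an effect of the drug and an effect of OFD1 loss cannot be told apart. In bulk RNA, fewer cells of a kind and less RNA per cell cannot be told apart either. The p-values measure the spread between these 3 samples a group, which the study calls biological replicates.

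In the resting pathway PTCH1 keeps SMO out of the cilium, while SUFU and protein kinase A restrain GLI2 and GLI3, and GLI3 is cut into a repressor. When a Hedgehog ligand binds PTCH1 together with GAS1, CDON or BOC, SMO enters the cilium, SUFU lets go of the GLI proteins, and full-length GLI2 switches on targets that include GLI1 and PTCH1 themselves. Loss of OFD1 is known to disturb cilia and Hedgehog signalling in animals. In RPE1 cells, the study reports that OFD1 depletion led to primary cilia and to fewer cells with Ki67, a marker of proliferation. The part of these changes in the values below was not tested.

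Expression was given as FPKM, a count of fragments divided by transcript length and by the sample's mapped total, so levels could be set side by side between genes. OFD1 had 3.34, 3.62 and 3.44 FPKM in control replicates 1, 2 and 3 and 0.795, 0.763 and 1.43 FPKM in OFD1-depleted replicates 1, 2 and 3, and its mean fell from 3.47 ± 0.144 to 0.996 ± 0.375 FPKM (SD, n = 3 each). This was 28.7% of control (log2 fold change -1.75, standard error 0.256, limma adjusted p = 0.00085), which checks the labels. Markers of epithelial cells included KRT8, KRT18 and KRT7 at 1 FPKM or more (3 of 5 markers, with EPCAM at 0), with a summed level of 274.5 to 292.7 FPKM in control and 309.9 to 443.2 FPKM in OFD1-depleted samples. Of 10 markers of retinal pigment epithelium only MITF and OTX2 reached 1 FPKM. In all samples 6 of the 10 were under 0.3 FPKM, with TTR and DCT listed at 0. The 10 markers summed to 7.34 to 7.79 FPKM in control and 9.85 to 12.4 FPKM in OFD1-depleted samples. The part of this difference in the results below was not tested. The labels call the tissue retina and their extraction text speaks of retinas, but the 7 photoreceptor markers were each under 0.3 FPKM in all samples. Markers of endothelial cells summed to at most 0.827 FPKM in any sample, and those of leukocytes, of which CD68 alone reached 1 FPKM, overlapped between the groups. Of 6 markers of retinal neurons and glia only RBPMS reached 1 FPKM, with a sum of 27.2 to 28.5 FPKM in control and 30.4 to 36.2 FPKM in OFD1-depleted samples. Mitochondrially encoded genes took 8.66% to 13.8% of summed FPKM in control and 15.6% to 19.3% in OFD1-depleted samples. The part of this shift in the values below was not tested beyond the change of scaling described with the counts.

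Of the 9 genes, CDON was the one that fell past the test, and it did so only where genes under 1 FPKM were tested. GLI2, GLI3, PTCH1, SMO and BOC also lay lower in each OFD1-depleted sample than in each control sample, while GLI1, SUFU and GAS1 overlapped between the groups. The plot of each sample shows these patterns gene by gene.

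CDON, BOC and GAS1 are cell-surface proteins that bind Hedgehog ligand beside PTCH1 and raise the response to it. CDON (ENSG00000064309, GRCh38 chromosome 11 from 125955796 to 126063335, minus strand) had 0.711, 0.557 and 0.801 FPKM across the control samples and 0.149, 0.201 and 0.233 FPKM across the OFD1-depleted ones. Every depleted sample thus held less CDON RNA than the lowest control sample. The mean fell from 0.690 ± 0.123 to 0.195 ± 0.0423 FPKM (SD, n = 3 each), or 28.2% of control. In the fit over the 17680 genes that averaged 0.1 FPKM or more, its log2 fold change was -1.42 (standard error 0.336, 95% interval -2.17 to -0.68, limma adjusted p = 0.0227), on the log2(FPKM + 0.1) scale, which understates the change of a gene this low. The exact permutation test of its FPKM gave p = 0.1 (two-sided), the smallest that 3 samples against 3 allow.

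The call for CDON depended on single libraries. Its adjusted p was 0.0929 without control replicate 1, 0.106 without control replicate 3 and 0.0606 without OFD1-depleted replicate 1, and it was 0.0485, 0.0304 and 0.0491 without control replicate 2, OFD1-depleted replicate 2 and OFD1-depleted replicate 3 in turn (limma). The log2 fold change stayed between -1.55 and -1.31 in all of these. With every gene above 0 FPKM in the fit the adjusted p was 0.0692.

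BOC (ENSG00000144857, GRCh38 chromosome 3 from 113211003 to 113287459, plus strand) was the best expressed co-receptor, with 6.64, 6.63 and 7.42 FPKM without doxycycline, against 6.51, 5.35 and 6.23 FPKM with it. The groups did not overlap, but OFD1-depleted replicate 1 came within a small margin of the control samples. The mean was 6.90 ± 0.452 FPKM without and 6.03 ± 0.606 FPKM with doxycycline (SD, n = 3 each), or 87.4% of control. Its log2 fold change of -0.19 (standard error 0.144, 95% interval -0.51 to 0.12, limma adjusted p = 0.401) did not pass the test, and the interval held both a modest decrease and a small increase. BOC overlaps CFAP44 on the opposite strand, which was measured at 0.590 to 0.964 FPKM, and the sources used here do not state whether the counting used strand.

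GAS1 (ENSG00000180447, GRCh38 chromosome 9 from 86944362 to 86947506, minus strand), a membrane-anchored co-receptor encoded by a single exon, was barely detected. It had 0.0182, 0.0235 and 0.0157 FPKM in replicates 1 to 3 of the control group, compared with 0.109, 0 and 0.0306 FPKM in those of the OFD1-depleted group. Depth was estimated roughly from low values of single-exon genes, most of which were not whole multiples of 1 fragment. At that depth the GAS1 levels correspond to about 2.2, 2.8 and 2.0 fragments in control and 14.0, 0 and 4.1 fragments in OFD1-depleted samples. The depleted samples therefore spanned the control range on both sides, and a difference was not detectable at this depth (two-sided exact permutation test, p = 0.7).

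PTCH1 (ENSG00000185920, GRCh38 chromosome 9 from 95442980 to 95517057, minus strand) is the Hedgehog receptor and, as a GLI target, also a readout of pathway output. It had 0.204, 0.262 and 0.314 FPKM across the control samples and 0.160, 0.115 and 0.183 FPKM across the OFD1-depleted ones. All depleted values lay under all control values, at a level well below 1 FPKM. The mean was 0.260 ± 0.0547 FPKM without and 0.153 ± 0.0343 FPKM with doxycycline (SD, n = 3 each), or 58.8% of control. The log2 fold change in the fit at 0.1 FPKM was -0.51 (standard error 0.402, 95% interval -1.40 to 0.38, limma adjusted p = 0.488), so no difference was called. The log2(FPKM + 0.1) scale understates the change of a gene this low. With 0.01 added in place of 0.1, the log2 fold change was -0.73 (limma adjusted p = 0.494). An antisense RNA within the gene, AL161729.1, had 0.0857 to 0.237 FPKM, about as much as PTCH1. Another on the opposite strand, AL161729.4, had 0.161 FPKM in control replicate 3, 0.314 FPKM in OFD1-depleted replicate 1 and 0 in the other samples. Reads of these RNAs and of PTCH1 cannot be told apart without strand.

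Because PTCH1 is switched on by GLI proteins, the promoters of the 9 genes were searched for the GLI consensus GACCACCCA on both strands, in the RefSeq promoter table (GRCh38.p14, 250 bases before to 50 bases after each start, 300 bases in all). The table held 15 promoters of 7 of the genes, with no entry for GLI1 and GLI3, and 1 of the 15 held the motif. It was 1 of the 5 PTCH1 promoters, with the motif read as TGGGTGGTC from position -172 relative to that start, and it is shown here as the only match of these letters among the 9 genes. The window reads 5′ to 3′ on the minus strand, chr9:95509419-95509448, with the motif in capitals, and lies in an intron of the longer PTCH1 transcripts.

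PTCH1: gttgcctaccTGGGTGGTCtctctactttg

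The motif was present in 83 of all 35116 promoters of the table (0.236%). Of the 32 genes with the motif and a mean of at least 1 FPKM, 4 were lower (12.5%) and 2 higher at a limma adjusted p under 0.05, beside 11.9% of all 12025 genes lower. The median log2 fold change of the 32 genes was 0.00, beside -0.03 over all genes tested. A match describes the letters in this window and does not show that a GLI protein binds there.

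SMO, the membrane protein that carries the signal into the cilium (ENSG00000128602, GRCh38 chromosome 7 from 129188633 to 129213545, plus strand), had 0.365, 0.327 and 0.353 FPKM without doxycycline, against 0.109, 0.184 and 0.249 FPKM with it. The control samples lay close together and the depleted samples were spread over a wider range, all of it below control. The mean was 0.349 ± 0.0194 FPKM without and 0.181 ± 0.0701 FPKM with doxycycline (SD, n = 3 each), or 51.8% of control. In the fit at 0.1 FPKM the log2 fold change was -0.71 (standard error 0.386, 95% interval -1.56 to 0.15, limma adjusted p = 0.294), and the exact permutation test of the FPKM gave p = 0.1. Here too the log2(FPKM + 0.1) scale understates the change. With 0.01 added in place of 0.1, the log2 fold change was -0.98 (limma adjusted p = 0.299).

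SUFU (ENSG00000107882, GRCh38 chromosome 10 from 102503972 to 102633535, plus strand), which binds GLI proteins in the cytoplasm and restrains them, was among the best expressed of the 9 genes. It had 6.13, 6.63 and 7.33 FPKM in replicates 1 to 3 of the control group, compared with 7.11, 5.73 and 5.89 FPKM in those of the OFD1-depleted group. The groups overlapped, with OFD1-depleted replicate 1 above the first 2 control replicates. The mean was 6.70 ± 0.602 FPKM without and 6.24 ± 0.756 FPKM with doxycycline (SD, n = 3 each). The log2 fold change of -0.10 (standard error 0.149, 95% interval -0.43 to 0.23, limma adjusted p = 0.691) was not called, and after quantile normalization it was 0.018.

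Among the GLI transcription factors GLI2 is the main activator, GLI3 the main repressor in its cut form, and GLI1 an activator whose own RNA depends on pathway output. GLI2 (ENSG00000074047, GRCh38 chromosome 2 from 120735623 to 120992653, plus strand) had 2.94, 1.94 and 3.11 FPKM across the control samples and 1.86, 1.06 and 1.75 FPKM across the OFD1-depleted ones. The lowest control sample and the highest depleted sample nearly met, and replicate 2 was the lowest in both groups. The mean was 2.66 ± 0.634 FPKM without and 1.56 ± 0.436 FPKM with doxycycline (SD, n = 3 each), a 1.71-fold difference. Its log2 fold change was -0.75 (standard error 0.270, 95% interval -1.34 to -0.15) with an unadjusted p of 0.0182 and a limma adjusted p of 0.0827. With array weights in limma it passed (adjusted p = 0.0214), and leaving out single samples gave adjusted p-values from 0.0607 to 0.274.

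GLI3 (ENSG00000106571, GRCh38 chromosome 7 from 41960949 to 42264100, minus strand) had 1.87, 1.97 and 1.93 FPKM without doxycycline, against 1.13, 1.23 and 1.40 FPKM with it. Both groups were tight and stood well apart. The mean was 1.92 ± 0.0502 FPKM without and 1.25 ± 0.138 FPKM with doxycycline (SD, n = 3 each), or 65.3% of control. Its log2 fold change was -0.58 (standard error 0.222, 95% interval -1.07 to -0.10) with an unadjusted p of 0.0232 and a limma adjusted p of 0.0974. Without the trend of variance on mean expression it passed (adjusted p = 0.0218), as it did with array weights (adjusted p = 0.0482). Leaving out single samples gave adjusted p-values from 0.0818 to 0.240, and quantile normalization gave 0.162.

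GLI1 (ENSG00000111087, GRCh38 chromosome 12 from 57459785 to 57472268, plus strand), the target gene most used as a readout of Hedgehog activity, had 0.202, 0.372 and 0.365 FPKM in replicates 1 to 3 of the control group, compared with 0.427, 0.256 and 0.214 FPKM in those of the OFD1-depleted group. The groups overlapped throughout, and the highest value of all 6 was in a depleted sample. The mean was 0.313 ± 0.0964 FPKM without and 0.299 ± 0.113 FPKM with doxycycline (SD, n = 3 each), or 95.7% of control. The log2 fold change in the fit at 0.1 FPKM was -0.05 (standard error 0.393, 95% interval -0.93 to 0.82, limma adjusted p = 0.953), an interval that leaves room for a change of nearly 1 on the log2 scale in either direction. ARHGAP9, which overlaps GLI1 on the opposite strand, had 0 to 0.0969 FPKM in control and 0.206 to 0.230 FPKM in OFD1-depleted samples, and AC022506.2, also on the opposite strand, had 0.117 to 0.255 FPKM over all samples. Reads of these genes and of GLI1 cannot be told apart without strand, and their part in the GLI1 values was not tested.

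The balance among these factors was compared within each sample, as shares and ratios that no scaling factor changes, beside their sum. GLI1, GLI2 and GLI3 together had 5.01, 4.28 and 5.41 FPKM across the control samples and 3.42, 2.55 and 3.37 FPKM across the OFD1-depleted ones, with no overlap. The mean sum was 4.90 ± 0.572 FPKM without and 3.11 ± 0.488 FPKM with doxycycline (SD, n = 3 each, two-sided exact permutation test, p = 0.1). The make-up of that sum overlapped between the groups for each gene. GLI2 held 53.9 ± 7.41% of it in control and 49.4 ± 6.89% in OFD1-depleted samples (exact permutation p = 0.5, n = 3 each). GLI3 held 39.6 ± 5.55% and 41.0 ± 7.72% (exact permutation p = 0.9) and GLI1 held 6.49 ± 2.34% and 9.64 ± 3.09% (exact permutation p = 0.3).

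SUFU RNA relative to the GLI sum was higher in each depleted sample, with the GLI sum lower and SUFU overlapping between the groups. The log2 ratio of SUFU to the GLI sum was 0.29, 0.63 and 0.44 in the control replicates and 1.06, 1.17 and 0.80 in the OFD1-depleted replicates. The groups did not overlap, at a mean of 0.45 ± 0.17 in control and 1.01 ± 0.19 in OFD1-depleted samples (SD, n = 3 each), which is 1.37 and 2.01 SUFU FPKM for each GLI FPKM. The difference of 0.56 gave p = 0.1 in the two-sided exact permutation test, the smallest p the design allows, and 0.3 after Benjamini-Hochberg adjustment over the 3 ratios compared. The other ratios overlapped: log2 GLI2 over GLI3 was 0.44 ± 0.40 in control and 0.28 ± 0.47 in OFD1-depleted samples, and log2 PTCH1 over SMO was -0.44 ± 0.35 and -0.19 ± 0.65 (exact permutation p = 0.7 for each, n = 3).

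**Figure D1:**
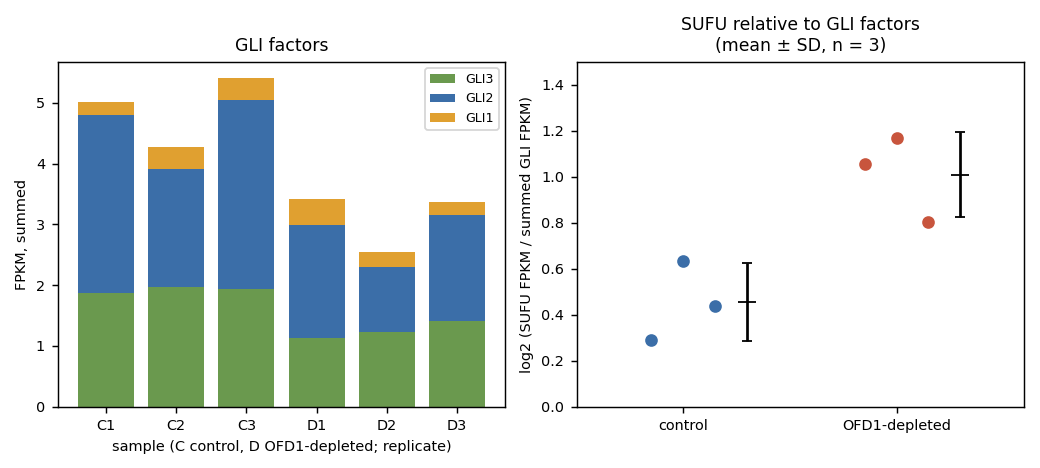
Left, FPKM of GLI3 (green), GLI2 (blue) and GLI1 (yellow) stacked for each control (C1 to C3) and OFD1-depleted (D1 to D3) sample, with the sum at 4.28 to 5.41 FPKM in control and 2.55 to 3.42 FPKM in OFD1-depleted samples. Right, the log2 ratio of SUFU FPKM to summed GLI FPKM in each sample (dots) with mean ± SD (n = 3), which runs from 0.29 to 0.63 in control and from 0.80 to 1.17 in OFD1-depleted samples.

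Set in order by mean FPKM, which is per transcript length, the control samples had BOC highest, then SUFU, GLI2, GLI3, CDON, SMO, GLI1, PTCH1 and GAS1. Neighbours whose samples overlapped were BOC and SUFU, GLI2 and GLI3, SMO and GLI1, and GLI1 and PTCH1. The clear steps lay between SUFU and GLI2 (2.51 times), GLI3 and CDON (2.79 times), CDON and SMO (1.98 times), and PTCH1 and GAS1. In OFD1-depleted samples the order was SUFU, BOC, GLI2, GLI3, GLI1, CDON, SMO, PTCH1 and GAS1. CDON, which stood above SMO and GLI1 in each control sample, overlapped both in the depleted samples. The clear steps were those between BOC and GLI2 (3.87 times) and between GLI3 and GLI1 (4.19 times). PTCH1 and GAS1 did not overlap there but nearly met, with the lowest PTCH1 value at 0.115 FPKM and the highest GAS1 value at 0.109 FPKM. In both groups the restraining protein SUFU and the co-receptor BOC thus stood highest, and the receptor PTCH1 and the co-receptor GAS1 lowest.

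The members were next read against all genes. Among genes that averaged 1 FPKM or more, 1429 of 12025 were lower (11.9%) and 610 higher (5.07%) in OFD1-depleted samples at a limma adjusted p under 0.05. GLI2, GLI3, SUFU and BOC passed that filter, and 0 of these 4 was called, with 2 of the 4 (GLI2 and GLI3) at an unadjusted p under 0.05, beside 19.1% of all genes lower at that p. Limma with array weights called 2 of them lower, beside 18.8% of all genes, and limma without the trend called 1, beside 10.8%. Of the 4, 3 lay lower without overlap, beside 22.3% of all genes tested. At a mean of at least 0.1 FPKM, 8 of the 9 genes were tested and 1, CDON, was lower, beside 7.6% of 17680 genes. The groups did not overlap, with depleted lower, for 6 of these 8, beside 18.6% of genes. All depleted samples lay above all control samples for 0 of the 8, beside 2120 of the 17680 genes. These counts cover the members expressed well enough to be tested, not all 9.

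The split of all genes moved with the scaling: 1990 were lower and 272 higher when each sample was scaled to the same total (TPM), and 1311 lower and 1093 higher after quantile normalization. TPM scaling moved the median log2 fold change of all genes by -0.14. Relative to the median of all genes, GLI2 stood at -0.71 and GLI3 at -0.55 as deposited, and at -0.65 and -0.49 after quantile normalization, which unlike a single factor per sample can move genes apart. SUFU stood at -0.07 and BOC at -0.16 as deposited, and at -0.03 and -0.12 after quantile normalization. With mitochondrially encoded genes left out of the total, the log2 fold changes were -0.80 for GLI2 (limma adjusted p = 0.115) and -0.64 for GLI3 (limma adjusted p = 0.103).

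The wider pathway was described with lists of 63 distinct genes in 6 roles, of which 42 were tested at a mean of at least 1 FPKM. Of the 42 genes, 6 were lower (limma adjusted p under 0.05), a share near the 11.9% of all genes tested. By the same threshold 0 were higher, beside 5.07% of all genes tested. Their median log2 fold change was -0.20, beside -0.03 over all genes tested. Without the 9 members, 38 genes were tested, with the same 6 lower and a median of -0.18. The ligand and reception lists had only 2 genes each above 1 FPKM. At 0.1 FPKM the reception list held 1 called gene among 5 tested, beside 7.6% of 17680 genes lower. That gene was CDON, whose call depended on single libraries as described above.

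Ligands were close to undetected. SHH, IHH and DHH had at most 0.022, 0.027 and 0.064 FPKM in any sample. These genes and the other uncalled genes named in the next sentences were chosen after their values were seen. HHAT, which attaches palmitate to Hedgehog ligands, and DISP1, which releases them, were the 2 genes of the 9 on the ligand list that were tested, and neither was called. Among reception genes, HHIP, a decoy that binds ligand and is itself a GLI target, was far above the members at 21.1 ± 0.801 FPKM without and 23.1 ± 1.95 FPKM with doxycycline (SD, n = 3 each), and a log2 fold change of 0.13 was not called (limma adjusted p = 0.538).

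Of 16 genes on the list for SMO and the cilium, 13 were tested and 3 were lower, beside 11.9% of all genes, with a median of -0.20. ARRB2, a beta-arrestin that helps SMO into the cilium, fell from 8.75 ± 0.525 to 4.94 ± 0.132 FPKM (SD, n = 3 each), with a log2 fold change of -0.81 (standard error 0.134, limma adjusted p = 0.00186). TULP3, an adaptor that carries GPR161 and other receptors into the cilium, where GPR161 restrains the pathway, fell from 12.3 ± 1.01 to 7.80 ± 0.883 FPKM (log2 fold change -0.66, limma adjusted p = 0.00877). ARRB2 and TULP3 passed under each alternative run.

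All 17 genes on the list of GLI regulators, which includes SUFU, were tested, with 1 lower, beside 11.9% of all genes, and a median of -0.10. That gene, CSNK1A1, encodes casein kinase 1 alpha, which phosphorylates GLI proteins after protein kinase A has done so. It fell from 44.2 ± 2.22 to 25.8 ± 5.93 FPKM (SD, n = 3 each, log2 fold change -0.80, limma adjusted p = 0.00627), and its adjusted p was 0.0599 with no filter. Of the 3 GLI factors, GLI2 and GLI3 were tested, with a median of -0.66 and neither called.

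Of 15 genes on the target list, 7 were tested and 2 were lower, beside 11.9% of all genes, with a median of -0.32. SFRP1, a secreted inhibitor of Wnt signalling, fell from 302.0 ± 17.9 to 166.0 ± 21.9 FPKM (SD, n = 3 each), with a log2 fold change of -0.87 (standard error 0.140, limma adjusted p = 0.00162), and passed under each alternative. CCND1, which encodes cyclin D1 of the G1 phase, fell from 318 ± 17.5 to 230 ± 17.6 FPKM (log2 fold change -0.47, limma adjusted p = 0.029). The CCND1 call was lost without control replicate 1, 2 or 3 or OFD1-depleted replicate 1 or 3 (adjusted p 0.0527 to 0.103) and kept without OFD1-depleted replicate 2 (0.0211), and with no filter the adjusted p was 0.0922. Both genes answer to other pathways as well. Among targets read more directly as Hedgehog output, PTCH1 lay lower without a call, and GLI1 and HHIP overlapped between the groups. FOXF2 (log2 fold change -0.54, limma adjusted p = 0.0637) and FOXL1 (-0.32, limma adjusted p = 0.157) lay lower without overlap and were not called. FOXF1, too low to be tested, was at 0.0521 ± 0.0299 FPKM in control and listed at 0 in each OFD1-depleted sample. Of the 7 targets tested, 4 lay lower without overlap, beside 22.3% of all genes tested, while 3 had a log2 fold change above 0. The uncalled targets named in this paragraph, other than members, were chosen after their values were seen. CCND2 and MYCN were listed at 0 in all 6 samples.

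**Figure D2:**
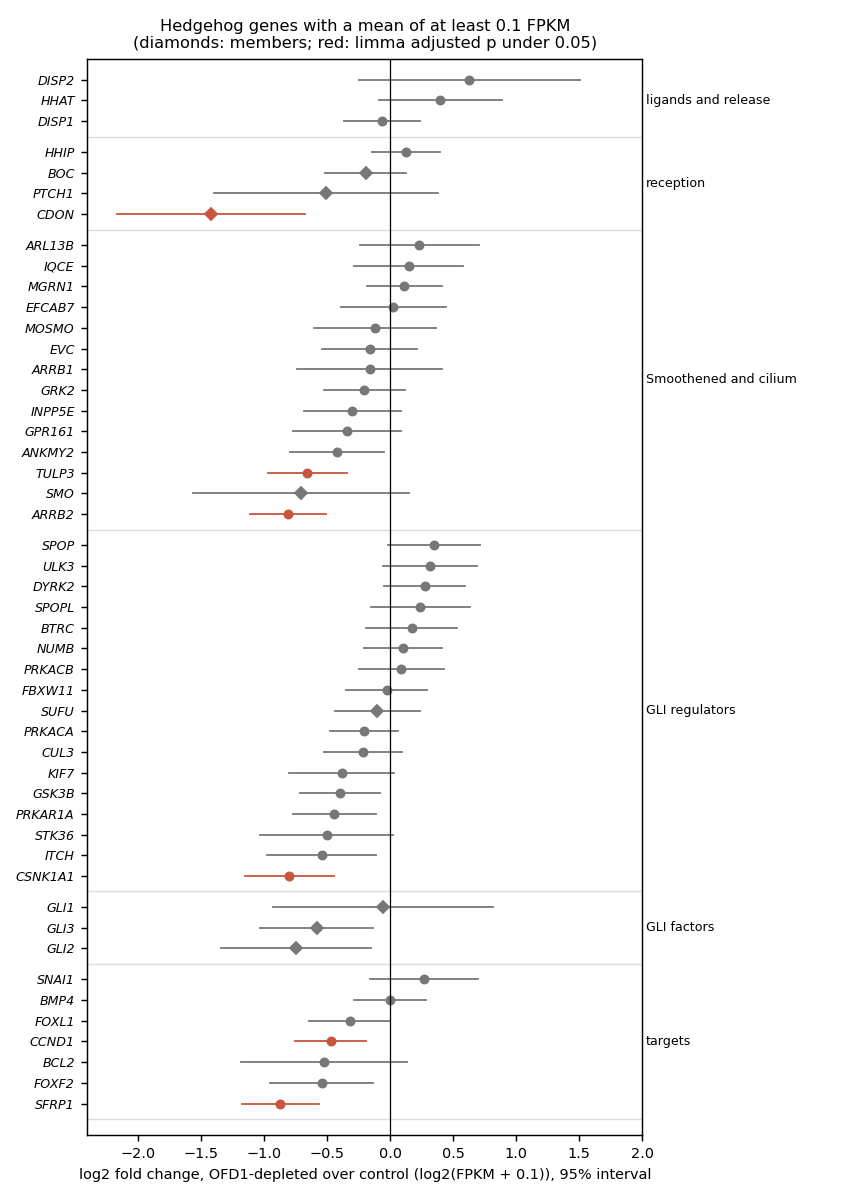
Log2 fold change (OFD1-depleted over control) with its 95% interval for Hedgehog genes that averaged 0.1 FPKM or more, grouped by list, from the limma fit over 17680 genes; members are diamonds and an adjusted p under 0.05 is red. Of the 8 members shown, CDON at -1.42 is red, and the intervals of GLI1, PTCH1, SMO, SUFU and BOC cross 0.

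For each member tested at 1 FPKM, the gene with the most similar pattern over the 6 samples was found by Pearson's correlation of log2(FPKM + 0.1), given as a description because the samples fall into 2 groups that pull many genes together. GLI2 was closest to ZMIZ1 (r = 0.999), and 155 genes had an r over 0.95 with it. ZMIZ1 had 35.8, 27.5 and 37.8 FPKM without doxycycline, against 27.2, 19.0 and 25.6 FPKM with it, so it shared the low replicate 2 of both groups. GLI3 was closest to TWF1P1 (r = 0.998, with 169 genes over 0.95), a pseudogene whose reads may belong to its parent gene. BOC was closest to DENND5B (r = 0.992, with 83 genes over 0.95), and SUFU to ZNF287 (r = 0.988, with 11 genes over 0.95).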

How the data were processed

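Conditions and replicate numbers came from the sample labels. By the methods and the submitters' processing notes, the authors mapped the paired reads to GRCh38 with HISAT2 (version 2.0.5) and deposited FPKM values per gene from StringTie. The labels name both a directional and another library kit, and the strand setting of the counting is not given in the sources used here. The table lists 67130 genes; 6464 on alternative contigs were at 0 in all samples and were left out. It holds no read counts. The FPKM sum was 408302 to 414547 in control and 433262 to 493510 in OFD1-depleted samples. If low values of single-exon genes are whole multiples of 1 fragment (20.3% to 26.8% of them were, within 0.05), the depth was about 38000000 to 45300000 fragments. The depth was chosen to fit that pattern best and most of the values did not follow it, so it is a rough estimate.

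Genes averaging 1 FPKM or more were tested on log2(FPKM + 0.1) by limma with trend (limma 3.58.1, R 4.3.3), two-sided, with Benjamini-Hochberg adjustment over all genes tested and a threshold of 0.05; members below that were fitted with all genes averaging 0.1 FPKM or more. The scripts were tested on simulated data. Single values and ratios were compared by exact permutation. Gene coordinates came from the deposited expression table, exon annotation from GENCODE version 44 and promoters from RefSeq. Other steps used Python 3.11.15. The genes named by rule were OFD1, the 9 members and each gene of a Hedgehog list past the threshold (the 4 with the largest change where more passed). For each member at 1 FPKM or more, the gene most correlated with it was named too. Other uncalled genes of the lists were named after their values were seen. Some genes of the lists are counted but not reported here by name or drawn in the figures. The members and lists were chosen with earlier results of these data known. Alternatives were pseudocounts of 0.01 and 1, filters at 0.1 and 5 FPKM and none, 4 other scalings, limma without the trend or with array weights, protein-coding genes alone, a replicate block and each sample left out. Refits of the low-level members were added after seeing the data.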

Additional observations from a re-analysis of the deposited data

How the results depend on the processing

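Over 40 results and 633 values under alternatives, 569 were taken as kept. A tested gene was kept with the same direction and side of the threshold. A member under 1 FPKM was kept when its change stayed within the spread, whatever its sign. Shares and ratios were kept with the same sign. Counts were kept when equal, which includes 0 against 0, or when within a fixed ratio. By that ratio, 1990 genes lower with TPM counted as kept beside 1429. Genes lower, 1429 as reported, were 823 with no filter, 2263 with array weights and 867 to 1741 with each sample left out. Genes higher, 610 as reported, were 260 with no filter, 272 with TPM, 1093 after quantile normalization, 1693 with array weights and 244 to 1077 with each sample left out. Hedgehog members lower, 0 as reported, were 1 with a filter at 0.1 FPKM (CDON), 1 without the trend (GLI3) and 2 with array weights (GLI2 and GLI3), and 0 with each sample left out. The filter changed which members were tested; for the rest the cause was not tested. Genes of the Hedgehog lists lower, 6 as reported, were 3 with no filter, 10 with TPM, 12 with array weights and 4 to 7 with each sample left out. Genes of the lists higher, 0 as reported, were 1 after quantile normalization, 3 with array weights and 0 to 1 with each sample left out.

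The log2 fold change of SUFU was 0.018 after quantile normalization. With a pseudocount of 0.01 in the fit at 0.1 FPKM, the log2 fold changes of CDON (-1.78), SMO (-0.98) and PTCH1 (-0.73) were not kept, as they moved beyond the spread. With each sample left out, the GLI3 share differed by -2.38 to 5.33 percentage points between the groups (below 0 without control replicate 3, at -0.667, or OFD1-depleted replicate 2), log2 GLI2 over GLI3 by -0.40 to 0.084 (above 0 without OFD1-depleted replicate 2), log2 PTCH1 over SMO by -0.11 to 0.50 (below 0 without OFD1-depleted replicate 1) and GLI1 by -0.27 to 0.10. Samples with the same replicate number deviated together only weakly (r = 0.0579, 0.0481 and 0.011), so the numbers were not taken as pairs. With a replicate block 1534 genes were lower and 762 higher, 1 member was lower (GLI2, adjusted p = 0.0364), and GLI3 had an adjusted p of 0.143. GAS1 rests on few fragments, and 3 samples a group limit what can be called.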
